A study of Mus musculus with 8 samples.

Results

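The 29 genes described here encode the machinery of fatty acid oxidation in mitochondria and peroxisomes, enzymes of ketone body metabolism, and coactivators and lipid-responsive genes tied to them. They were chosen by name for these roles and not by a threshold on measured values. Of the 39179 genes in the deposited count table, 29 were these genes, and all 29 passed the filter on low counts. The data are bulk RNA sequencing libraries of whole mouse tissue, 5 of small intestinal adenoma and 3 of wild-type small intestine. The adenomas came from VilCreER+ APCfl/+ animals, which carry a tamoxifen-inducible Cre recombinase under the villin promoter, active in intestinal epithelium, together with 1 floxed and 1 normal allele of Apc. The wild-type animals were VilCreER+ without the floxed allele. Per the labels, tissue of both groups had been exposed to tamoxifen-induced recombination, and all animals were on an inbred C57BL6/J background. Age is stated only for the adenoma-bearing animals, described as aged in the series' design. Whether the libraries of a group came from separate animals is not stated, so a p-value here reflects the spread between these samples, which may be technical.

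As background, a fatty acid is activated to acyl-CoA, passed to carnitine to cross the inner mitochondrial membrane, and shortened in cycles of dehydrogenation, hydration, dehydrogenation and thiolysis. Electrons of the first step reach the respiratory chain through the electron transfer flavoprotein. Peroxisomes carry out a parallel pathway for very-long-chain fatty acids. Ketone bodies are made from the acetyl-CoA of oxidation and are broken down again by other tissues. In the intestine these genes are known as targets of the lipid-sensing PPAR receptors and their PGC-1 coactivators, and their activity has been studied in both absorptive and stem cells.

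Total counts ran from 18040301 to 28343915 per library, and the floxed gene Apc stood at 132 to 159 CPM in adenoma, against 190.5 to 211 CPM in wild type. Some libraries stood apart on genes outside the pathway. In the library labelled adenoma 2, Hoxb13, which marks distal gut, stood at 245.2 CPM, while the other 7 libraries had no more than 0.893 CPM. The 14 mature enterocyte markers summed to 369.6 CPM in it, while the other adenomas had 9731 to 18909 CPM. Acinar genes of the pancreas summed to 581 CPM in adenoma 5 and to 869 CPM in wild type 1, with 132 CPM or less elsewhere. CPM are counts per 1000000 counts of the library, scaled by the TMM factors of edgeR. Log2 fold changes are adenoma over wild type ± SE, with n = 5 and n = 3, and a gene is called changed at a Benjamini-Hochberg adjusted p below 0.05 in edgeR's quasi-likelihood test over all genes.

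Of the 29 genes, 11 fell, 3 rose and 15 did not pass the test. Ppargc1a and Ppargc1b, coactivators of mitochondrial genes, had the largest log2 fold changes, at -2.94 and -1.44. The peroxisomal genes Acaa1a, Ehhadh and Pex11a, the mitochondrial dehydrogenase Hadh and the kinase Pdk4 followed, between -1.23 and -1.08. The 14 called make 48.3% of the genes, and 58.1% of all 18345 genes tested were called. The 11 that fell make 37.9%, against a background of 27.8%, and the 3 that rose make 10.3%, against 30.3%. The median log2 fold change was -0.18, and it was 0.044 over all genes. Against a change by a factor of 2, tested with glmTreat, 2 of the 29 genes passed as lower, with a background of 7.52%, and 0 passed as higher, with a background of 5.66%. The 2 groups of libraries did not overlap for 11 genes, against a background of 56.9%. The adenomas lay below for 9 of them, with a background of 27.6%, and above for 2, with a background of 29.3%. Without adenoma 2 the counts were 7 higher and 11 lower, and over all 18195 genes tested they were 6185 and 6092. Without wild type 1 and adenoma 5 the 29 genes had 2 higher and 5 lower, and all 18591 genes tested had 4146 and 3798. The calls of Acsl1, Acadm, Echs1, Hadh, Etfa, Ehhadh and Pdk4 were then lost. Another fit also held the sex pattern of Xist and Y-linked genes, and it rests on adenoma 1 for the group difference. Of the genes that fell, Ppargc1a and Ppargc1b kept their calls in it, at -2.91 and -1.45. The others that fell lost theirs, with log2 fold changes of -1.35 to -0.31. Those that rose, Slc25a20, Acads and Echs1, stood at 0.73, 0.72 and 0.67 in that fit.

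**Figure D1:**
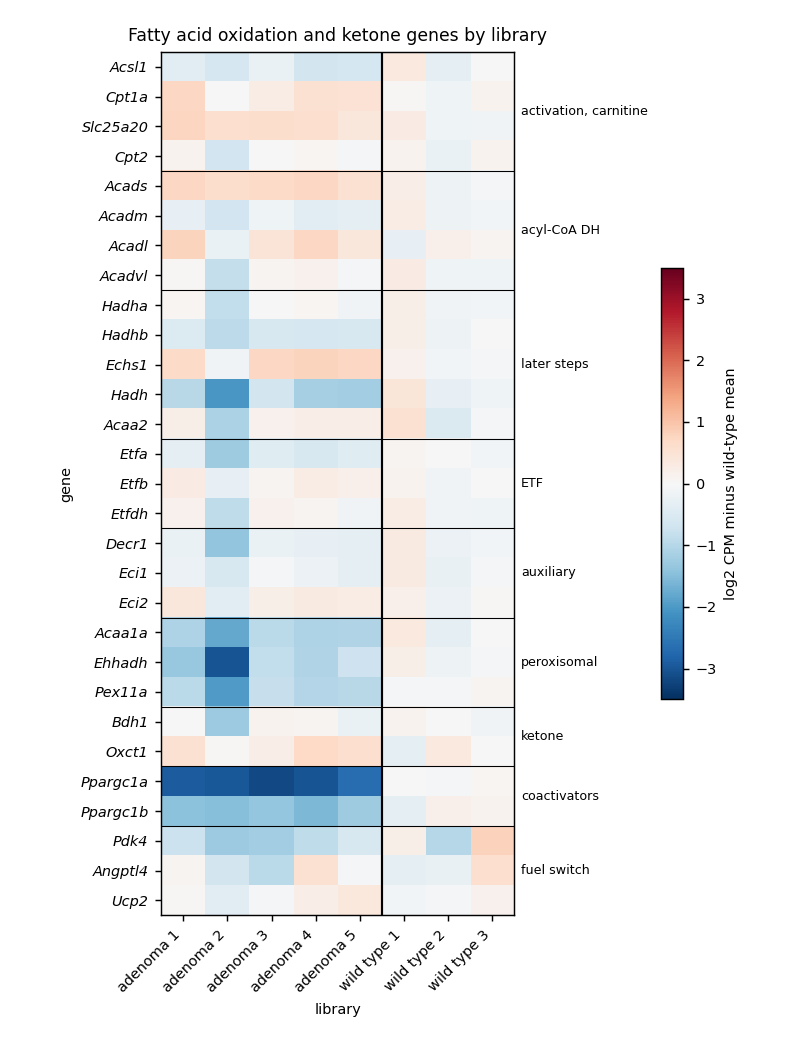
Each row is a gene and each column a library, with adenomas left of wild type, and colour gives log2 CPM minus the wild-type mean of the gene. Ppargc1a is dark blue in all 5 adenomas, the 3 peroxisomal genes are blue in all 5, and adenoma 2 has the lowest value of the 5 adenomas in 23 of the 29 rows.

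The coactivators of the PGC-1 family were the most reduced. Ppargc1a (ENSMUSG00000029167, chromosome 5, 51454250 to 51567726, minus strand) encodes PGC-1 alpha, which drives mitochondrial gene expression together with nuclear receptors. It stood at 10.4, 9.94, 8.70, 9.59 and 12.3 CPM in adenomas 1 to 5, against 79.1, 74.3 and 82.0 CPM in wild type 1 to 3. Every adenoma lay far below every wild-type library, and the adenomas were close to each other. The log2 fold change was -2.94 ± 0.11 (adjusted p = 2.98e-06), and the fall exceeded a factor of 2 (glmTreat adjusted p = 1.51e-05). Its paralogue Ppargc1b, which encodes PGC-1 beta, was at 8.15, 7.74, 8.52, 7.38 and 9.23 CPM in adenomas 1 to 5, against 17.8, 24.8 and 24.1 CPM in wild type 1 to 3. The groups were again separate, and wild type 1 was the lowest of its group. The log2 fold change was -1.44 ± 0.13 (adjusted p = 6.88e-05; glmTreat adjusted p = 0.0134). Both calls at an adjusted p of 0.05 held in all 21 alternative analyses. The call of Ppargc1b beyond a factor of 2 was lost without wild type 2 (glmTreat adjusted p = 0.0696) or wild type 3 (0.0663), while that of Ppargc1a held without every single library. The Ppargc1b call was also lost with the replicate number as a block (0.0867), with the sex pattern as a covariate (0.149) and with tricarboxylic acid cycle genes as the scale (0.915), where the log2 fold change of Ppargc1b was -0.78. In these 3 fits Ppargc1a passed. In libraries of whole tissue, fewer cells that express a gene and less RNA per cell cannot be told apart. Markers of smooth muscle, a tissue that also expresses Ppargc1a, summed to 409.7 to 1032 CPM in adenoma, against 920.1 to 1679 CPM in wild type, and 3 of its 7 markers fell while 4 did not pass the test. The part of these cells in the result was not tested.

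The promoter of Ppargc1a is shown because this gene changed most among the 29. The sequences here and below are from RefSeq (GRCm38.p6) and run 5′ to 3′. They span 250 bases before the gene's start in RefSeq to 50 after it, and 25 of the 29 genes had an entry. Positions of matches are counted from that start. For Slc25a20 and Ehhadh it differs from the end of the gene coordinates printed, which are from GENCODE. Capitals mark TGACG, the core of the cAMP response element, or a match with at most 2 mismatches to the direct repeat bound by PPAR with RXR, which is 2 copies of AGGTCA with 1 base of any kind between them. Each was searched on both strands. The window of Ppargc1a (chr5:51567676-51567975, minus strand) held 1 TGACG, read on the opposite strand, starting 49 bases before the start.
Ppargc1a: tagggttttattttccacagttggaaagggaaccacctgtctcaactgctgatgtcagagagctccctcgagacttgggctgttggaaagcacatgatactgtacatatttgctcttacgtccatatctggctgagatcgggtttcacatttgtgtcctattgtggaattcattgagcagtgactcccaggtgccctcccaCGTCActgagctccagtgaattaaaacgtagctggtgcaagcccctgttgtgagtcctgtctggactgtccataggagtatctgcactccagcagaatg
TGACG was found in the windows of 6 of the 25 genes and in 20.8% of all 32851 promoter windows. The direct repeat with at most 2 mismatches was found in 3 of the 25 genes and in 3.86% of all windows, and with no mismatch in 0 of the 25 genes and 0.0396% of windows. The motif TCAAGGTCA of estrogen-related receptors was in 0 of the 25 genes and in 0.423% of all windows. It shares the letters AGGTCA with the direct repeat. A match describes letters only.

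Activation and transport into mitochondria went both ways. Acsl1, which joins long-chain fatty acids to CoA, stood at 63.6, 55.8, 70.4, 53.4 and 54.2 CPM in adenomas 1 to 5, against 105, 66.0 and 82.9 CPM in wild type 1 to 3. The groups overlapped, since wild type 2 lay below adenoma 3. Acsl1 fell, with a log2 fold change of -0.51 ± 0.16 (adjusted p = 0.0206), and the call was lost without wild type 1 or without wild type 3, with an adjusted p of up to 0.101. Slc25a20 (ENSMUSG00000032602, chromosome 9, 108662088 to 108684641, plus strand) encodes the carrier that exchanges acylcarnitine for carnitine across the inner membrane. It stood at 89.8, 80.4, 81.7, 80.8 and 70.2 CPM in adenomas 1 to 5, against 65.0, 48.2 and 49.3 CPM in wild type 1 to 3. Each adenoma lay above each wild-type library, with a log2 fold change of 0.57 ± 0.12 (adjusted p = 0.00418). Cpt1a, the carnitine palmitoyltransferase that sets the rate of entry, was at 285, 175, 205, 251 and 244 CPM in adenomas 1 to 5, against 177, 154 and 187 CPM in wild type 1 to 3. It narrowly missed the threshold, at 0.43 ± 0.16 (adjusted p = 0.0517), with adenoma 2 the lowest adenoma. Without adenoma 2 Cpt1a passed it, at 0.51 (adjusted p = 0.00472). Cpt2, which returns the acyl group to CoA inside, did not pass, at 45.4 to 78.5 CPM in adenoma, against 61.3 to 79.3 CPM in wild type (adjusted p = 0.667).

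The promoter windows of the genes with a match to the direct repeat are shown because they include a pair of the 3 genes that rose and 1 that fell. Slc25a20 (chr9:108661886-108662185, plus strand) held the match AGGTGAAAGGTCG starting 6 bases after the start, Echs1 (chr7:140116372-140116671, minus strand) held AGGTCACGGGTCC starting 83 bases before it, and Etfa (chr9:55512194-55512493, minus strand) held TTACCTTTGCCCT, read on the opposite strand, starting 77 bases before it. Etfa also held 1 TGACG on the opposite strand.
Slc25a20: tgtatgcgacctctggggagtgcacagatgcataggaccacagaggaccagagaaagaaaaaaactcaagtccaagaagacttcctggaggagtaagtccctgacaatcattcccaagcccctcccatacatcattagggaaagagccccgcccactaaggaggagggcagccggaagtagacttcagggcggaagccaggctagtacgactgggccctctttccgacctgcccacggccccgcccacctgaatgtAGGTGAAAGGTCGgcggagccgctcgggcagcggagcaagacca
Echs1: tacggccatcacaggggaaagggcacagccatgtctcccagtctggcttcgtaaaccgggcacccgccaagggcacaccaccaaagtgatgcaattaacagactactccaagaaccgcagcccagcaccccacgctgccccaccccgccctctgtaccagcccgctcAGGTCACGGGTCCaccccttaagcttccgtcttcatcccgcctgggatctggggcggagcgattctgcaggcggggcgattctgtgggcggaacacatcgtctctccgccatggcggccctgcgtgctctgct
Etfa: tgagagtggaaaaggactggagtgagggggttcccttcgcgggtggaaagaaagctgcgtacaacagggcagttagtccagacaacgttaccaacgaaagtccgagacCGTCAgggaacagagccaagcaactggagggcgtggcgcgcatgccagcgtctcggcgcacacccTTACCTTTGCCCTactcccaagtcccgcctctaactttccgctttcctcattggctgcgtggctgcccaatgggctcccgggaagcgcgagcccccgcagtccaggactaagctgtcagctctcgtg
Of these, Slc25a20 and Echs1 were higher in adenoma and Etfa was lower, so the match was found beside changes in both directions.

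The 4 acyl-CoA dehydrogenases, which take the first step of the cycle on chains of different length, did not move together. Acads, for short chains (ENSMUSG00000029545, chromosome 5, 115110299 to 115119346, minus strand), stood at 90.1, 83.0, 86.3, 90.0 and 79.0 CPM in adenomas 1 to 5, against 63.7, 47.9 and 52.2 CPM in wild type 1 to 3. The groups were separate, and Acads rose, at 0.65 ± 0.11 (adjusted p = 0.00104). Acadm, for medium chains, stood at 73.5, 56.9, 80.9, 70.3 and 72.9 CPM in adenomas 1 to 5, against 109, 80.2 and 84.4 CPM in wild type 1 to 3. The groups overlapped only through wild type 2 and adenoma 3. Acadm fell, at -0.36 ± 0.14 (adjusted p = 0.0464), a call lost without any 1 of adenomas 1, 4 and 5 and wild type 1 and 3, with an adjusted p of up to 0.220. Acadl, for long chains, was at 149.8, 74.1, 121, 144 and 115 CPM in adenomas 1 to 5, against 72.5, 98.8 and 94.3 CPM in wild type 1 to 3. Its adenomas other than adenoma 2 lay above wild type, and the gene did not pass the test over all libraries (0.45 ± 0.22, adjusted p = 0.113) but did without adenoma 2, at 0.57 (adjusted p = 0.00432). Acadvl, for very long chains, was at 62.3 to 124 CPM in adenoma, against 101 to 136 CPM in wild type (adjusted p = 0.726). Of the exon bases of Acadvl, 42.9% overlap Dvl2 on the opposite strand, so its reads cannot all be assigned without strand.

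Among the enzymes of the later steps, Hadh moved most. Hadh (ENSMUSG00000027984, chromosome 3, 131233419 to 131272101, minus strand) encodes the 3-hydroxyacyl-CoA dehydrogenase for short and medium chains. It stood at 231, 109, 290.3, 202 and 194 CPM in adenomas 1 to 5, against 608, 372 and 407 CPM in wild type 1 to 3. The groups were separate, with adenoma 2 the lowest and wild type 1 the highest. Hadh fell, at -1.17 ± 0.29 (adjusted p = 0.00777). Without wild type 1 and adenoma 5 together it was -0.90 and no longer passed (adjusted p = 0.0766). Fitted beside the sex covariate, its adjusted p was 0.174. The mitochondrial trifunctional protein carries the later steps for long chains and is built from the products of Hadha and Hadhb, neighbours on chromosome 5 that are read in opposite directions. Hadhb (ENSMUSG00000059447, chromosome 5, 30155248 to 30184593, plus strand) stood at 24.9, 18.2, 23.2, 22.9 and 23.4 CPM in adenomas 1 to 5, against 39.4, 30.5 and 34.2 CPM in wild type 1 to 3. It fell, at -0.62 ± 0.13 (adjusted p = 0.00301), with separate groups. Hadha, at 299, 158, 284, 299 and 260.3 CPM in adenomas 1 to 5, against 329, 265 and 269 CPM in wild type 1 to 3, did not pass the test (-0.14 ± 0.21, adjusted p = 0.570). Of the 36-base stretches in annotated transcripts of Hadhb, 22.3% also occur in transcripts of other genes, chiefly the gene models Gm13910 and Gm9108, so its level is uncertain with reads of this length. For Hadha the share is 0.536%.

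Echs1, the enoyl-CoA hydratase for short chains, stood at 117, 66.8, 119, 125 and 120.4 CPM in adenomas 1 to 5, against 80.3, 68.5 and 70.2 CPM in wild type 1 to 3. Adenoma 2 lay below all 3 wild-type libraries and the other 4 adenomas above them. Echs1 rose, at 0.59 ± 0.20 (adjusted p = 0.0303), and the call held without adenoma 2 but was lost without any other single library, with an adjusted p of up to 0.0927. Acaa2, the mitochondrial thiolase of the last step, was at 163, 65.1, 156, 168 and 166 CPM in adenomas 1 to 5, against 204, 100.4 and 139 CPM in wild type 1 to 3. Its wild-type libraries spanned the range of 4 adenomas, and it did not pass (-0.042 ± 0.33, adjusted p = 0.919).

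The electron transfer flavoprotein hands electrons from the dehydrogenases to the respiratory chain. Etfa, its alpha subunit, stood at 40.9, 21.5, 37.5, 34.3 and 37.6 CPM in adenomas 1 to 5, against 54.3, 50.6 and 47.5 CPM in wild type 1 to 3. All adenomas lay below wild type. Etfa fell, at -0.56 ± 0.19 (adjusted p = 0.0278), and the call was lost without adenoma 4 or any 1 wild-type library, with an adjusted p of up to 0.0936. Etfb, the beta subunit, was at 51.9 to 76.1 CPM in adenoma, against 58.0 to 68.9 CPM in wild type (adjusted p = 0.474), and 58.2% of its exon bases overlap other annotated genes, chiefly Gm45233 on the same strand. Etfdh, which passes the electrons on to ubiquinone, was at 57.4 to 119.6 CPM in adenoma, against 96.6 to 128 CPM in wild type (adjusted p = 0.758).

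Of the 3 auxiliary enzymes that prepare unsaturated chains for the cycle, none passed the test. Decr1, a dienoyl-CoA reductase, stood at 109, 49.2, 108, 105 and 101 CPM in adenomas 1 to 5, against 157, 109.9 and 119.8 CPM in wild type 1 to 3. The groups did not overlap, with adenoma 2 far below the rest, and the log2 fold change was -0.45 ± 0.25 (adjusted p = 0.156). Without adenoma 2 the spread was smaller and Decr1 passed, at -0.29 (adjusted p = 0.0468). The isomerase genes Eci1 and Eci2 were at 24.6 to 35.0 CPM in adenoma, against 30.2 to 45.2 CPM in wild type, and at 31.3 to 54.5 CPM in adenoma, against 35.5 to 46.4 CPM in wild type, with adjusted p of 0.158 and 0.408. Eci2 passed without adenoma 2, at 0.28 (adjusted p = 0.0322).

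The 3 peroxisomal genes all fell, and their groups did not overlap. Acaa1a (ENSMUSG00000036138, chromosome 9, 119339676 to 119350299, plus strand), the peroxisomal thiolase, stood at 77.5, 46.9, 84.7, 77.4 and 78.5 CPM in adenomas 1 to 5, against 205, 131 and 160.0 CPM in wild type 1 to 3. Acaa1a fell, at -1.18 ± 0.20 (adjusted p = 0.00135). Of its 36-base stretches, 21.4% occur in other transcripts, chiefly the near copy Acaa1b and the overlapping gene Myd88. Ehhadh (ENSMUSG00000022853, chromosome 16, 21761287 to 21787807, minus strand), which carries the hydratase and dehydrogenase steps of peroxisomal oxidation in 1 protein, stood at 46.7, 14.4, 64.5, 57.0 and 71.2 CPM in adenomas 1 to 5, against 137, 105 and 114 CPM in wild type 1 to 3. Adenoma 2 was the lowest by a wide margin. The log2 fold change was -1.23 ± 0.43 (adjusted p = 0.0378), and the call was lost without any 1 of adenomas 1 and 4 and the 3 wild-type libraries, with an adjusted p of up to 0.112. Pex11a (ENSMUSG00000030545, chromosome 7, 79735957 to 79743131, minus strand), which promotes elongation and division of peroxisomes, stood at 13.5, 6.52, 14.7, 12.6 and 13.1 CPM in adenomas 1 to 5, against 24.9, 25.2 and 27.7 CPM in wild type 1 to 3. The wild-type values were within a narrow range, and the log2 fold change was -1.10 ± 0.22 (adjusted p = 0.00311). Mature enterocyte markers were also lower in adenoma as a sum, at 369.6 to 18909 CPM, against 35839 to 53539.7 CPM in wild type. Of the 14 markers 8 were lower, 0 were higher and 6 did not pass, and none was at 0. The part of enterocyte content in the fall of the 3 peroxisomal genes was not tested. Without adenoma 2 all 3 kept their calls, at -1.06 for Acaa1a (adjusted p = 1.20e-04), -0.996 for Ehhadh (adjusted p = 3.52e-04) and -0.95 for Pex11a (adjusted p = 2.41e-05). Ehhadh lost its call without wild type 1 and adenoma 5 together, at -1.26 (adjusted p = 0.103). With the sex pattern as a covariate their calls were lost, at -1.09 for Acaa1a, -1.35 for Ehhadh and -0.95 for Pex11a. The fit with that covariate rests on adenoma 1 for the group difference. With tricarboxylic acid cycle genes as the scale Ehhadh did not pass, at -0.66 (adjusted p = 0.0805). None of the 3 passed the test against a factor of 2 (glmTreat adjusted p of 0.331, 0.520 and 0.538).

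The window of Ehhadh is shown as the gene with the largest log2 fold change of the peroxisomal 3. It (chr16:21787785-21788084, minus strand) held 1 TGACG, starting 179 bases before the start, and no match to the direct repeat. The windows of Acaa1a and Pex11a held neither.
Ehhadh: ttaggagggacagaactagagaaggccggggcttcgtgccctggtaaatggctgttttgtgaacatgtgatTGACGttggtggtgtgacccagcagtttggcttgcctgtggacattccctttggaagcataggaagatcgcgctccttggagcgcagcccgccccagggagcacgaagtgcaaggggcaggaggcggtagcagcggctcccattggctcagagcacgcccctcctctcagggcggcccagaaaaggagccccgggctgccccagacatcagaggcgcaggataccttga

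**Figure D2:**
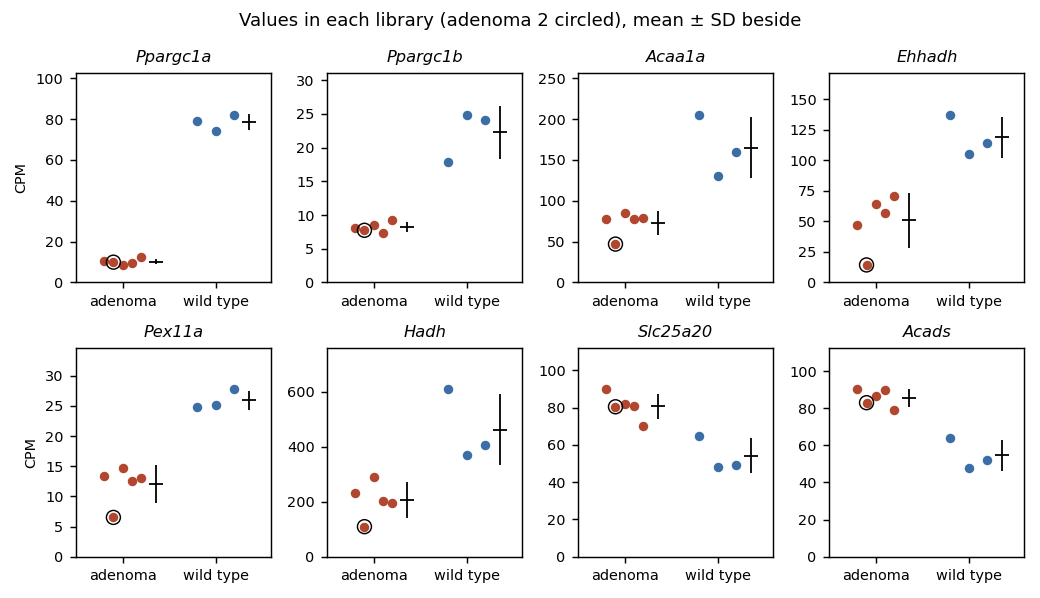
Each panel gives the CPM of a gene in each library, adenoma left and wild type right, with mean ± SD as a bar beside the points (n = 5 and n = 3) and adenoma 2 circled. The adenomas lie below wild type for Ppargc1a, Ppargc1b, Acaa1a, Ehhadh, Pex11a and Hadh and above it for Slc25a20 and Acads.

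Ketone metabolism showed no called change in its 2 genes. Bdh1, which interconverts acetoacetate and 3-hydroxybutyrate, stood at 99.0, 41.3, 109, 106 and 84.0 CPM in adenomas 1 to 5, against 107, 98.9 and 91.6 CPM in wild type 1 to 3. Only adenoma 2 was far from the other libraries, and Bdh1 did not pass (-0.18 ± 0.28, adjusted p = 0.605). Oxct1, which attaches CoA to acetoacetate for its use as fuel, stood at 193, 137, 156, 216 and 201 CPM in adenomas 1 to 5, against 106, 169 and 133 CPM in wild type 1 to 3. The groups overlapped, and the log2 fold change was 0.41 ± 0.19 (adjusted p = 0.0981). Oxct1 passed without adenoma 2, at 0.49 (adjusted p = 0.0284), and without wild type 2. Exons of both genes overlap a gene on the opposite strand, over 13.7% of the bases of Bdh1 and 12.6% of those of Oxct1.

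Of the lipid-responsive genes, Pdk4 fell. Pdk4 encodes a kinase that shuts off pyruvate dehydrogenase and so favours fat over glucose as fuel. It stood at 17.5, 12.3, 12.8, 16.0 and 20.3 CPM in adenomas 1 to 5, against 33.9, 14.9 and 51.6 CPM in wild type 1 to 3. Wild type 2 lay within the adenomas, and wild type 1 and 3 lay above them. The log2 fold change was -1.08 ± 0.35 (adjusted p = 0.0262), and the call was lost without any 1 of adenomas 2, 3 and 4 and wild type 1 and 3, with an adjusted p of up to 0.139. Angptl4, a secreted inhibitor of lipoprotein lipase, was at 21.3, 12.6, 10.3, 28.4 and 18.7 CPM in adenomas 1 to 5, against 15.9, 16.4 and 29.7 CPM in wild type 1 to 3. Its values ran widely in both groups and did not separate (adjusted p = 0.684). Ucp2, a carrier of the inner mitochondrial membrane, was at 124 to 209.9 CPM in adenoma, against 153 to 183 CPM in wild type (adjusted p = 0.796). Adipocytes also express Pdk4 and Angptl4. The markers Adipoq, Plin1, Lep and Cfd stood at 0 to at most 0.0931 CPM in every library, with Lep at 0 in all 8, while the summed level of the 6 markers, carried by Cidec and Plin4, was 10.6 to 62.5 CPM in adenoma, against 65.9 to 104 CPM in wild type.

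**Figure D3:**
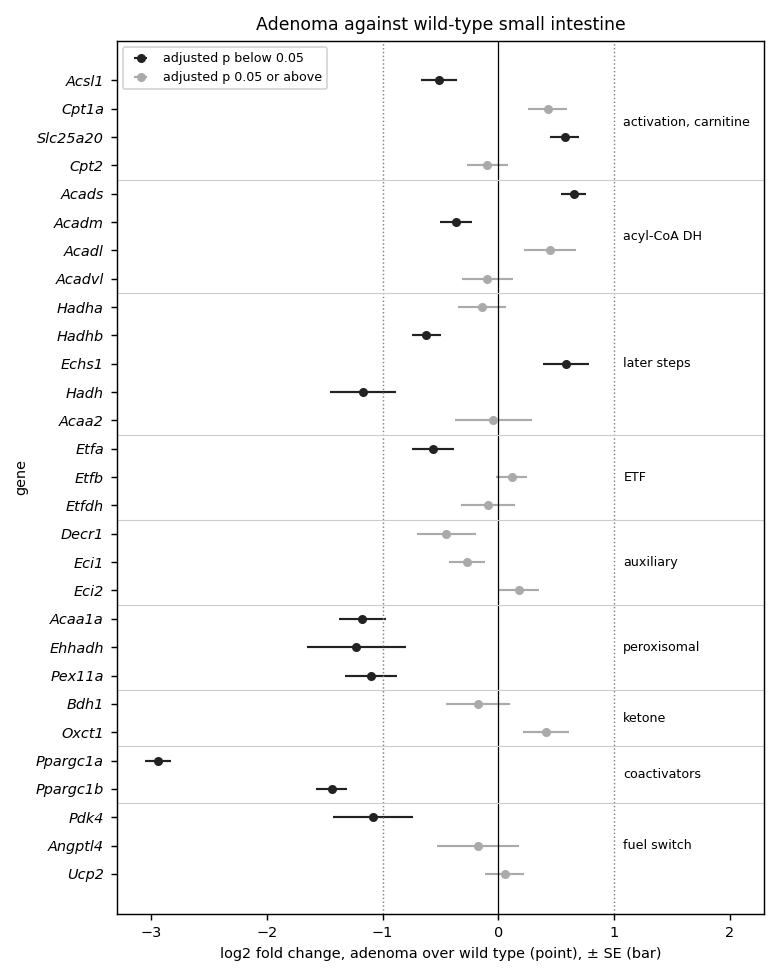
Points give the log2 fold change of adenoma over wild type for each gene and bars its SE, in black where the adjusted p is below 0.05, and dotted lines mark a factor of 2. The points of Ppargc1a and Ppargc1b lie farthest to the left, the peroxisomal genes, Hadh and Pdk4 lie just past the line at -1, and no point lies past the line at 1.

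The direction of the smaller changes depended on the scaling. With pan-epithelial genes as the scale 0 of the 29 genes were higher and 23 lower, beside 1116 and 9957 of all 18345 genes tested. With tricarboxylic acid cycle genes 13 were higher and 5 lower, beside 9170 and 1630 of all genes tested. With 10 pan-epithelial genes as the scale, which put the median of all genes at -0.73, Slc25a20, Acads and Echs1 stood at -0.20, -0.12 and -0.23. With 18 genes of the tricarboxylic acid cycle as the scale, which put it at 0.71, Acsl1, Acadm, Hadhb and Etfa stood at 0.17, 0.29, 0.025 and 0.051. The log2 fold changes of Hadh, Acaa1a, Ehhadh, Pex11a, Ppargc1a, Ppargc1b and Pdk4 were below 0 under TMM and all 5 other scalings. Relative to the median of all genes, each of the 14 called genes kept 1 direction under TMM and the 5 other scalings.

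On a scale of CPM per kilobase of annotated exon, which allows levels of different genes to be compared, Acaa2 had the highest mean level of the 29 genes in both groups, though in each group its range overlapped that of the next gene. Its level was 94.7 ± 29.1 CPM per kilobase in adenoma, against 97.5 ± 34.6 CPM per kilobase in wild type. Hadh was second in wild type and Acadl in adenoma. Hadh stood at 41.3 ± 13.2 CPM per kilobase in adenoma, against 92.9 ± 25.7 CPM per kilobase in wild type. Acadl stood at 60.2 ± 15.0 CPM per kilobase in adenoma, against 44.2 ± 7.01 CPM per kilobase in wild type (SD, n = 5 and n = 3). The adenoma ranges of Hadh and Acadl overlap in these units, so their order there is not beyond the spread. Ppargc1a, at 1.55 ± 0.203 CPM per kilobase in adenoma, against 11.9 ± 0.591 CPM per kilobase in wild type, was the lowest of the 29 in adenoma and ranked 20 in wild type. Ppargc1b, at 2.06 ± 0.179 CPM per kilobase in adenoma, against 5.58 ± 0.971 CPM per kilobase in wild type, ranked 28 in both. Annotated exon length includes rarely used isoforms, so the order among genes with long annotated exons is approximate.

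The spread among adenomas came mainly from adenoma 2. It was the lowest adenoma for 23 of the 29 genes and the highest for 0. Over all genes tested it was lowest for 36.3% and highest for 36.6%. It was the lowest of all 8 libraries for 20 of the 29 genes. Ehhadh, Acaa2 and Bdh1 were farthest below, by log2 differences of -2.07, -1.33 and -1.31 from the median of the other 4 adenomas. Ehhadh was at 14.4 CPM in adenoma 2, against a median of 60.7 CPM in the other 4. At the other end Ppargc1a, Slc25a20, Acsl1 and Acads differed by -0.0081, -0.015, -0.074 and -0.087. The median difference over the 29 genes was -0.68, and over all genes it was 0.014. The median SD of log2 CPM over the adenomas was 0.32 with adenoma 2 and 0.11 without it, against 0.23 over the wild-type libraries. For all genes tested these medians were 0.26, 0.16 and 0.18. Adenoma 2 is a single library, so these are values with no test. In it the pan-epithelial markers summed to 5515 CPM, against 7216 to 9130 CPM in the other adenomas. The 8 colon markers summed to 575 CPM, against 58.5 to 83.3 CPM in the other adenomas and 169.5 to 185 CPM in wild type. Of the 8, 4 passed the filter on low counts. Among these Slc26a3 and Cym were lowest of all 8 libraries in adenoma 2, at log2 CPM of 5.08 and -0.96. Aqp8 and Ly6g were highest there, at 4.76 and 3.46. Mitochondrial genes outside the pathway were low in adenoma 2 too. The 18 genes of the tricarboxylic acid cycle summed to 1967 CPM, against 3117 to 3295 CPM in the other adenomas, and 12 outer membrane and import genes to 1126 CPM, against 1513 to 1725 CPM. The part of any of these in the difference was not tested.

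**Figure D4:**
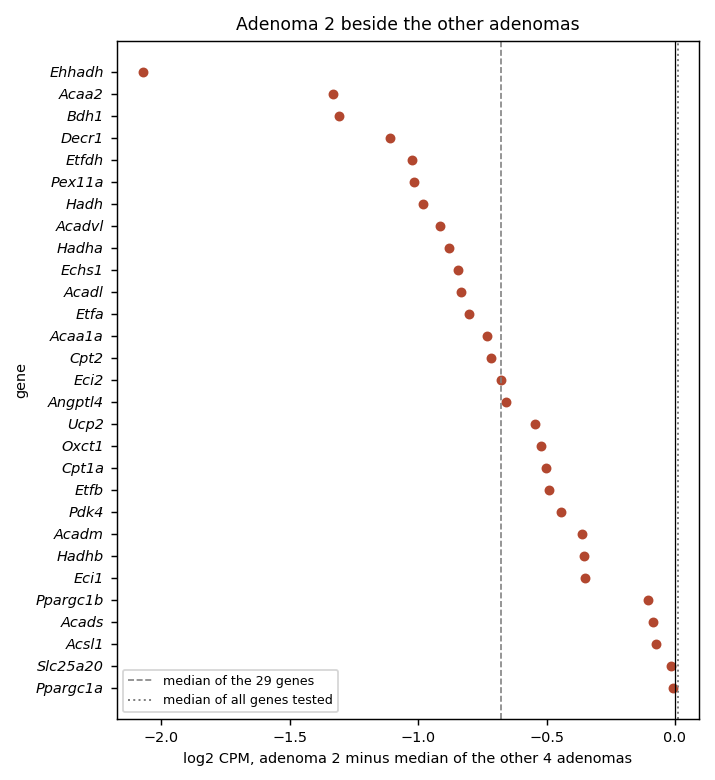
Points give the log2 CPM of adenoma 2 minus the median of the other 4 adenomas for each of the 29 genes. All points lie at or below 0, with Ehhadh at -2.07 and Ppargc1a at -0.0081, and the dashed and dotted lines mark the medians of the 29 genes (-0.68) and of all genes tested (0.014).

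Further genes of the pathway, 63 in 5 lists, were read from the same fit. Of these 12 rose, 23 fell and 28 did not pass, with a median log2 fold change of -0.31. The 35 called make 55.6%, against the background of 58.1%. Of 17 further genes of peroxisomal oxidation 8 fell, 0 rose and 9 did not pass. The 8 make 47.1%, against the background of 27.8%. Over the 17 the median of -0.45 turned to 0.15 under scaling to tricarboxylic acid cycle genes with 4 higher and 3 lower. Without wild type 1 and adenoma 5 together, 3 of the 17 were lower, and 3798 of all 18591 genes tested were. Without wild type 1 alone 5 of the 17 were lower, and 4363 of all 18747 genes tested were. Acox2 and Acox3, oxidases of branched chains, had log2 fold changes of -1.29 ± 0.32 (adjusted p = 0.00893) and -0.79 ± 0.07 (adjusted p = 5.51e-05). The call of Acox2 was lost without wild type 1 and adenoma 5 together (adjusted p = 0.0757).

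Enzymes of mitochondrial oxidation outside the 29 genes numbered 14, of which 6 rose and 2 fell. The 8 called make 57.1%, against the background of 58.1%. Over the 14 the median was 0.37, which turned to -0.40 under pan-epithelial scaling with 0 higher. Acadsb, a dehydrogenase for short branched chains, had a log2 fold change of 0.92 ± 0.12 (adjusted p = 3.82e-04), at 35.9 to 49.8 CPM in adenoma, against 21.1 to 25.4 CPM in wild type. Acad9, an assembly factor of complex I and a dehydrogenase, had 0.46 ± 0.081 (adjusted p = 0.00158), and Hsd17b10 had 0.67 ± 0.13 (adjusted p = 0.00225). Both lie below 0 under pan-epithelial scaling. Slc25a42, which carries CoA into mitochondria, fell, at -1.29 ± 0.19 (adjusted p = 6.28e-04).

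Of 12 acyl-CoA synthetases and carnitine genes 2 rose and 5 fell (7 without adenoma 2), and the median was -0.52. The 7 called over all libraries make 58.3%, against the background of 58.1%. The genes that rose were Acsl3 and Acsl4, synthetases better known for lipid synthesis and for arachidonate, while their paralogue Acsl1 fell. Acsl3 stood at 195, 145, 213, 193 and 145 CPM in adenomas 1 to 5, against 46.7, 33.6 and 38.5 CPM in wild type 1 to 3. Each adenoma held several times the level of each wild-type library, with a log2 fold change of 2.17 ± 0.18 (adjusted p = 4.63e-05). Acsl4 was at 67.4 ± 8.10 CPM in adenoma, against 18.1 ± 2.21 CPM in wild type, a log2 fold change of 1.90 ± 0.13 (adjusted p = 2.08e-05). The organic cation transporter genes Slc22a4 and Slc22a5, of which Slc22a5 encodes the carnitine importer, fell, at -2.59 ± 0.40 (adjusted p = 9.23e-04) and -1.03 ± 0.18 (adjusted p = 0.00163).

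Of 8 further genes of ketone synthesis, use and export 3 rose and 2 fell, and the median was 0.26. The 5 called make 62.5%, against the background of 58.1%. Aacs, which activates acetoacetate in the cytosol for lipid synthesis, was at 83.3 ± 7.34 CPM in adenoma, against 35.4 ± 2.75 CPM in wild type, a log2 fold change of 1.24 ± 0.10 (adjusted p = 3.82e-05). Bdh2, a cytosolic dehydrogenase, was at 0.985 to 8.94 CPM in adenoma, against 0.436 to 0.966 CPM in wild type, low in both groups, and rose, at 3.05 ± 0.73 (adjusted p = 0.00740). Slc16a6, a transporter known in zebrafish to export ketone bodies from liver, fell, at -0.995 ± 0.21 (adjusted p = 0.00342).

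Of 12 nuclear receptors and factors of mitochondrial gene expression 1 rose and 6 fell (8 without adenoma 2), and the median was -0.65. The 7 called over all libraries make 58.3%, against the background of 58.1%. The 2 PPAR genes that passed went opposite ways. Pparg, known for adipocyte differentiation and expressed in colon, stood at 27.5, 29.3, 33.3, 40.3 and 43.1 CPM in adenomas 1 to 5, against 12.4, 7.01 and 8.94 CPM in wild type 1 to 3. The groups were separate, and Pparg rose, at 1.88 ± 0.23 (adjusted p = 2.38e-04). Ppard, a PPAR of broad expression, stood at 13.2, 13.1, 15.8, 14.9 and 18.4 CPM in adenomas 1 to 5, against 34.1, 59.9 and 57.3 CPM in wild type 1 to 3. It fell, with a log2 fold change of -1.74 ± 0.19 (adjusted p = 1.46e-04). Esrra, the estrogen-related receptor that works with PGC-1 on mitochondrial genes, was at 108 ± 22.4 CPM in adenoma, against 183 ± 14.9 CPM in wild type, a log2 fold change of -0.76 ± 0.18 (adjusted p = 0.00638), and lost its call without wild type 1 and adenoma 5 together (adjusted p = 0.0557). Perm1, a muscle regulator, was at 1.54 to 2.13 CPM in adenoma, against 2.90 to 4.31 CPM in wild type, and fell, at -0.94 ± 0.20 (adjusted p = 0.00380).

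**Figure D5:**
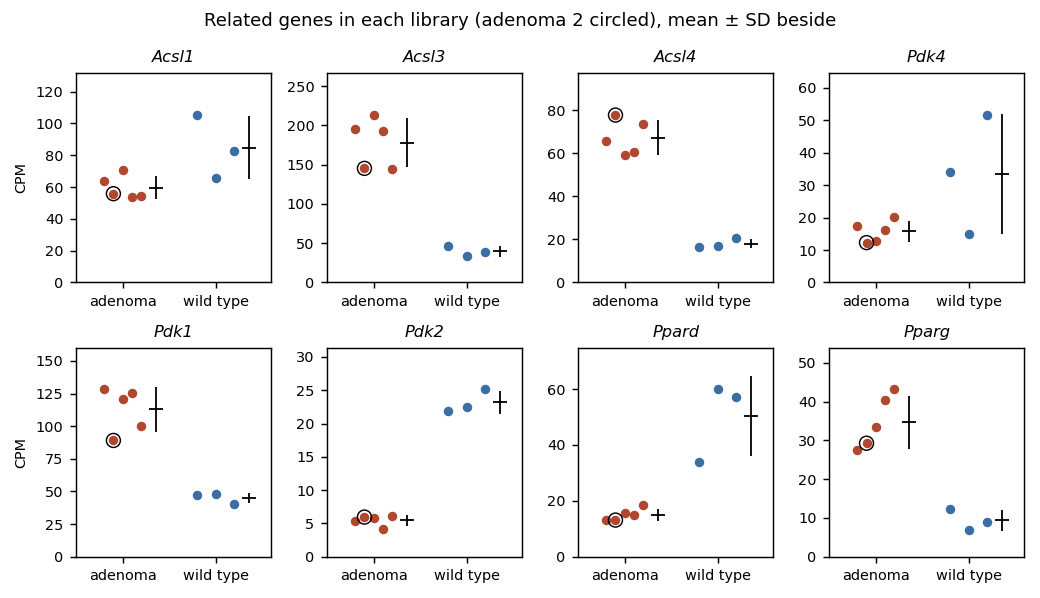
Each panel gives the CPM of a gene in each library, adenoma left and wild type right, with mean ± SD as a bar beside the points (n = 5 and n = 3) and adenoma 2 circled. Among paralogues Acsl1 and Pdk4 overlap between the groups, Acsl3, Acsl4, Pdk1 and Pparg lie higher in adenoma, and Pdk2 and Ppard lie lower.

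Genes of other mitochondrial functions set the scale for these changes. Of 18 genes of the tricarboxylic acid cycle 2 rose and 7 fell (3 and 12 without adenoma 2). The 9 called over all libraries make 50%, against the background of 58.1%. Over the 18 the median was -0.42, and they summed to 1967 to 3295 CPM in adenoma, against 4413 to 4852 CPM in wild type. Ogdh, a subunit of the 2-oxoglutarate dehydrogenase complex, had a log2 fold change of -1.54 ± 0.20 (adjusted p = 3.19e-04), and Cs, citrate synthase, had -0.99 ± 0.17 (adjusted p = 0.00117). Dlst fell as well (-0.98 ± 0.17, adjusted p = 0.00159), while Idh2 rose (0.74 ± 0.08, adjusted p = 1.35e-04). Idh2 stood at -0.015 under pan-epithelial scaling. Of 12 outer membrane and import genes, whose median was 0.16, 16.7% were called. Among them 2 rose and 0 fell (5 and 0 without adenoma 2). These were Tomm20 (0.57 ± 0.092, adjusted p = 9.77e-04) and Vdac3 (0.30 ± 0.10, adjusted p = 0.0293), and both stood below 0 under pan-epithelial scaling. The call of Vdac3 was lost without wild type 1 and adenoma 5 together (adjusted p = 0.0711).

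Genes of pyruvate dehydrogenase, its kinases and phosphatases and the pyruvate carrier moved in both directions around Pdk4, with 2 of 11 higher and 3 lower. The 5 called make 45.5%, against the background of 58.1%. Pdk2, a paralogue of Pdk4, stood at 5.35, 5.96, 5.85, 4.10 and 6.15 CPM in adenomas 1 to 5, against 21.9, 22.5 and 25.1 CPM in wild type 1 to 3. It fell past a factor of 2, at -2.08 ± 0.14 (adjusted p = 1.97e-05; glmTreat adjusted p = 3.18e-04). Pdk1 stood at 128, 89.1, 121, 126 and 100.2 CPM in adenomas 1 to 5, against 47.1, 47.7 and 40.8 CPM in wild type 1 to 3. It rose past a factor of 2, at 1.32 ± 0.14 (adjusted p = 1.33e-04; glmTreat adjusted p = 0.0447). Pdp1, a phosphatase that switches the complex back on, rose as well, at 1.45 ± 0.13 (adjusted p = 6.73e-05; glmTreat adjusted p = 0.00955). Under pan-epithelial scaling Pdk1 and Pdp1 stood at 0.52 and 0.71, short of a factor of 2. Mpc1, a subunit of the mitochondrial pyruvate carrier, fell, at -0.60 ± 0.16 (adjusted p = 0.0111), and lost its call without wild type 1 and adenoma 5 together (adjusted p = 0.0591).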

How the data were processed

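RNA of 8 whole-tissue samples was extracted with RNeasy kits, made into TruSeq RNA v2 libraries, which do not keep strand, and sequenced as paired ends of 36 cycles, per the labels' protocols. The authors deposited raw counts per gene under Ensembl identifiers. TopHat2, HTSeq and FastQC are the tools listed, with the GRCm38 build, per the submitters' processing notes. Their versions, the annotation release and any strand setting were not given in the sources used here. Symbols and coordinates came from GENCODE M21, on GRCm38, which matched 37607 of 39179 identifiers. The 1572 others, with at most 0.407% of counts, stayed in. Values of 8 columns were used, and library pairs of a group differed beyond sampling noise (chi-square per degree of freedom 20.1 to 149 over genes with at least 20 counts).

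In R 4.3.3, edgeR 4.0.16 was used with filterByExpr, which kept 18345 genes, TMM scaling and robust quasi-likelihood fits, with Benjamini-Hochberg adjustment over all genes, glmTreat at a log2 fold change of 1, and a prior count of 2 for log2 CPM. The procedure was tested on simulated data. The SE is the log2 fold change divided by the square root of F. DESeq2 1.42.0 and limma-voom (limma 3.58.1) were alternatives. Genes and lists were chosen with earlier results of these data known. Every gene of the 29 is given, and up to 4 with the smallest adjusted p of each other list. Some genes of those lists are not reported here.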

Additional observations from a re-analysis of the deposited data

Results flagged for a closer look

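Adenoma 2 lay far from the other 4 adenomas for 8 of the 29 genes, by a gap to its nearest neighbour above the critical share of 0.71 of the group's range (Dixon's test for 5 samples). Chance flags about 1 in 20 groups, and the 29 genes share the same libraries. Low values of adenoma 2 passed the same limit for 27.6% of the 29 genes and for 3.80% of all genes tested, and 14.0% of all genes had some adenoma past it. All 8 were low values. Adenoma 2 stood at 45.4 CPM for Cpt2, where the next adenoma was at 69.4 CPM. It stood at 62.3 CPM for Acadvl, 158 CPM for Hadha, 66.8 CPM for Echs1 and 65.1 CPM for Acaa2. It stood at 49.2 CPM for Decr1, 46.9 CPM for Acaa1a and 6.52 CPM for Pex11a. The next lowest adenomas were at 106.6 CPM for Acadvl, 260.3 CPM for Hadha, 117 CPM for Echs1, 156 CPM for Acaa2, 101 CPM for Decr1, 77.4 CPM for Acaa1a and 12.6 CPM for Pex11a. The same library held the hindgut gene Hoxb13 and low mature enterocyte markers, whose part in these values was not tested.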

How the results depend on the processing

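Counts over the 29 genes were 3 higher and 11 lower with TMM. They were 6 higher with total counts, 0 higher and 23 lower with pan-epithelial scaling, and 13 higher and 5 lower with scaling to tricarboxylic acid cycle genes. In the fit with the sex pattern as a covariate 2 were lower. That fit rests on adenoma 1 for the group difference. Leaving out wild type 1 together with adenoma 5 gave 5 lower. Leaving out 1 library gave 2 to 7 higher and 6 to 11 lower. Beyond a factor of 2, 0 were higher in every setting in which that test was run and 2 were lower, or 9 with pan-epithelial scaling, 1 with tricarboxylic acid cycle scaling, 1 with the sex pattern, and 1 to 2 with 1 library left out. For the other 63 pathway genes, 12 higher and 23 lower became 6 and 46 with pan-epithelial scaling and 26 and 9 with tricarboxylic acid cycle scaling. The lower count was 7 with the sex pattern and 13 without wild type 1 and adenoma 5 together, and leaving out 1 library gave 12 to 14 higher and 16 to 27 lower. Over all genes, 5558 higher and 5099 lower became 1116 and 9957 with pan-epithelial scaling, 9170 and 1630 with tricarboxylic acid cycle scaling, and 3074 and 2298 with the sex pattern, and leaving out 1 library gave 4529 to 6185 higher and 4135 to 6092 lower. The pan-epithelial and tricarboxylic acid cycle scalings move the median of all genes by construction, and leaving out samples leaves fewer of them. The cause of the other shifts was not tested.

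Replicate numbers are shared between groups, but same-numbered libraries deviated from their group means with correlations of -0.018, 0.051 and 0.061, and 3 of 6 libraries correlated best with their own number, so no pairing was assumed. With the replicate number as a block, 7 of the 29 genes were lower and 1 lower beyond a factor of 2, 7 other pathway genes were higher, and 3345 genes were higher and 3204 lower overall.

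Signs that turned under pan-epithelial scaling, as log2 fold changes, were Cpt1a at -0.37, Acadl at -0.38, Oxct1 at -0.39, Slc25a20 at -0.20, Acads at -0.12, Echs1 at -0.23, Etfb at -0.68, Eci2 at -0.63, Ucp2 at -0.74, Acad9 at -0.32, Hsd17b10 at -0.12, Idh2 at -0.015, Tomm20 at -0.19 and Vdac3 at -0.48. Under tricarboxylic acid cycle scaling they were Acsl1 at 0.17, Cpt2 at 0.53, Acadm at 0.29, Acadvl at 0.52, Hadha at 0.47, Hadhb at 0.025, Etfa at 0.051, Etfdh at 0.52, Acaa2 at 0.56, Decr1 at 0.15, Eci1 at 0.38, Bdh1 at 0.41, Angptl4 at 0.43 and Mpc1 at 0.059. Of the 14 called genes, 8 kept their call without every single library: Slc25a20, Acads, Hadhb, Hadh, Acaa1a, Pex11a, Ppargc1a and Ppargc1b. In the other settings the signs that turned were of Cpt2, Acadvl, Hadha, Acaa2, Etfdh, Angptl4 and Ucp2, none of them called there or with TMM.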

Other observations

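Some further genes of the pathway were chosen after their values were seen. Acsl5, the acyl-CoA synthetase of absorptive epithelium, stood at 840.2, 105, 882, 749 and 562 CPM in adenomas 1 to 5, against 1828, 1302 and 1545 CPM in wild type 1 to 3. Every adenoma lay below every wild-type library, and Acsl5 did not pass the test (-1.31 ± 0.54, adjusted p = 0.0669). Without adenoma 2 it passed, at -1.05 (adjusted p = 6.19e-04). Ppara, the fasting-responsive PPAR, was at 18.9, 4.36, 35.7, 20.4 and 25.5 CPM in adenomas 1 to 5, against 59.1, 33.1 and 55.6 CPM in wild type 1 to 3, and likewise did not pass (-1.23 ± 0.54, adjusted p = 0.0819), with adenoma 2 the lowest library for both genes. Without adenoma 2 Ppara stood at -0.98 (adjusted p = 0.0156). Cpt1b, the muscle form of the carnitine palmitoyltransferase, was at 0.345 to 1.29 CPM in adenoma, against 2.17 to 2.70 CPM in wild type, a log2 fold change of -2.02 ± 0.41 (adjusted p = 0.00295).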
